A study of Mus musculus with 36 samples.

Results

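Lungs of mast cell-deficient KitWsh mice that received the MC engraftment were compared with lungs of KitWsh mice that received none, all without allergen. The arrays were chosen by their labels, 3 of the KitWsh mice with PBS exposure and MC engraftment (KitWsh_MC PBS) and 3 of the KitWsh mice with PBS exposure and no engraftment (KitWsh PBS), 6 of the 36 arrays in all. Both groups were female, of the C57BL/6 strain, homozygous for the sash mutation at Kit and, per the labels' protocols, backcrossed to C57BL/6J and age-matched, with no age given. Both were injected intraperitoneally 3 times (days 1, 4 and 7) with phosphate-buffered saline (PBS) and took it intranasally once a week for 9 weeks from day 12, the schedule on which other mice of the series received ovalbumin (OVA). The labels do not explain the engraftment codes. MC is read as mast cells, and no label gives the source, dose, route or date of the cells. Whether the samples of a group were separate animals is not stated either, so p-values measure only the spread between these samples.

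Mast cells develop from bone marrow progenitors that need the receptor tyrosine kinase Kit. They settle in tissues, where they store histamine and the proteases chymase, tryptase and carboxypeptidase A3 in granules and release them when antigen binds IgE on their high-affinity receptor. The sash mutation disturbs the regulation of Kit rather than its protein, so adult KitWsh mice lack mast cells but keep Kit in some other cells, and refilling them with mast cells is a standard way to ask what those cells do. Other cell types that use Kit, such as melanocytes and blood progenitors, are also affected in these mice, and engraftment is not meant to restore them.

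In these unchallenged lungs the mast cell protease and IgE receptor genes lay at or near background in both groups, while many other transcripts differed. Chil3 and Siglecf, which alveolar macrophages express, were higher in KitWsh_MC PBS lungs. Of 14 genes of cholesterol and fatty acid synthesis 5 were called higher and 2 lower, 50.0% of the list beside 21.0% of all genes. None of the 5 higher genes was called whichever array was left out, and other probe sets of Acly, among them, were called lower. The neutrophil granule genes Camp and Ngp, the endothelial genes Pecam1 and Cdh5, the matrix genes Thbs1, Fbln1 and Mfap4 and both chains of the IFN-γ receptor were lower. Of these, Cdh5, Thbs1, Fbln1 and Mfap4 passed the test whichever array was left out, and the others did not. Single genes did not stand for their lists: the median log2 difference was 0.27 for neutrophil genes and -0.14 for endothelial genes, beside -0.15 for all genes. A measure of RNA quality on the arrays differed between the groups as well, and is given before the other values because it touches each of them.

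Affymetrix arrays carry probe sets at the 3' and the 5' end of the GAPDH transcript, and the difference of their log2 values grows as RNA breaks down or is copied incompletely. It was 2.93, 3.57 and 2.13 in KitWsh_MC PBS arrays 1, 2 and 3 and 0.55, 1.93 and 0.84 in KitWsh PBS arrays 1, 2 and 3. The groups did not overlap. The same difference for beta-actin was 3.02, 3.41 and 2.33 against 1.74, 2.48 and 1.99, and overlapped. In WT PBS lungs, from wild-type C57BL/6 females on the same schedule (n = 4), the GAPDH value ran from 0.39 to 1.44. In PBS lungs of KitWsh mice with the engraftment label MCifngR (n = 3), which is read as mast cells without the IFN-γ receptor, it ran from 3.58 to 4.22, above all 6 arrays.

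**Figure D1:**
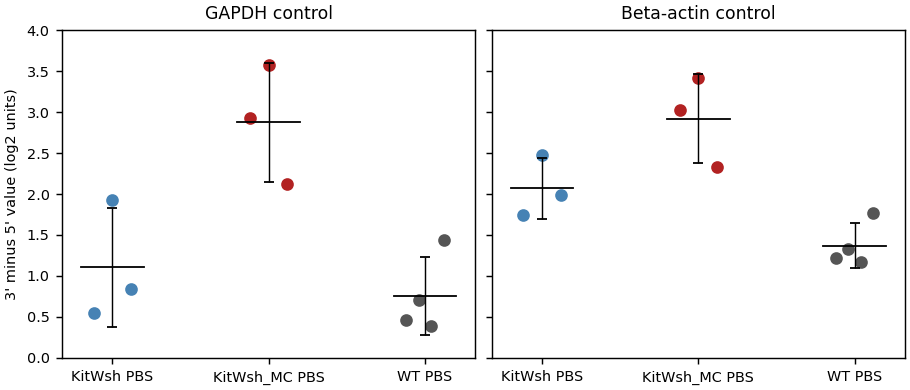
Difference between 3' and 5' control probe sets for GAPDH (left) and beta-actin (right) in log2 units, 1 point per array, with the mean (line) and SD (bar) of KitWsh PBS (n = 3), KitWsh_MC PBS (n = 3) and WT PBS (n = 4). The 3 KitWsh_MC PBS arrays, at 2.13 to 3.57, lie above the other 2 groups for GAPDH, while for beta-actin they overlap KitWsh PBS.

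Values are log2 intensities, and a difference is KitWsh_MC PBS minus KitWsh PBS. A gene is called at an adjusted p under 0.05 in limma's moderated test (Benjamini-Hochberg, two-sided, n = 3 and 3). Of 10946 genes tested, 2301 were called (21.0%), 657 of them higher (6.0%) and 1644 lower (15.0%). The median difference of all tested genes was -0.15, and once each array was centred on its own median 963 genes were called higher (8.8%) and 769 lower (7.03%). All 657 higher genes and 769 of the 1644 lower ones kept their call and direction, so the share of calls that were higher moved from 28.6% to 55.6%. Most differences were under 2-fold: the median was 0.77 for genes called higher and -0.70 for genes called lower, and 199 and 261 genes differed by more than 2-fold.

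The calls rest on few arrays and on the spread between them. The count fell to 805 without KitWsh_MC PBS array 2, to 717 without KitWsh PBS array 1 and to 585 without KitWsh PBS array 3, and 489 of the 2301 genes (199 higher, 290 lower) were called whichever 1 array was left out. With the GAPDH value of each array as a covariate limma called 0 genes, with 1329 at an unadjusted p under 0.05, where there were 4192 without it. The genes first called kept most of their size in that fit, with medians of 0.62 (higher) and -0.51 (lower). They kept their sign in 100% and 99.6%, while the median standard error (SE) rose from 0.15 to 0.26. These genes were chosen for their difference on the same arrays, which by itself favours a kept sign and size. No such share is given for all tested genes, so the kept signs and sizes cannot tell the part of RNA quality. With the beta-actin value 5 genes were called, among them Endod1, Spag17 and Thbs1, the other two having predicted or clone names. The part of RNA quality in the differences was not tested beyond these values.

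The tissue matched its label. Sftpc, the surfactant protein of type 2 cells, lay between 15.27 and 15.51 and Scgb1a1, the secretoglobin of club cells, between 15.64 and 15.89 in all 6 arrays. Kit itself was 5.10, 5.34 and 5.07 in KitWsh_MC PBS and 5.54, 5.72 and 5.24 in KitWsh PBS, overlapping groups that differed by -0.33 ± 0.16 (adjusted p = 0.163). In WT PBS lungs Kit averaged 10.06 ± 0.18 (SD, n = 4). The engrafted lungs thus stayed at the level of the other KitWsh lungs for this transcript, far under wild type.

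Of 18 genes listed for mast cells only 4 exceeded log2 5, the limit for testing, in at least 3 of the 6 arrays. Cma1, which encodes chymase, was 5.03, 2.97 and 4.97 in KitWsh_MC PBS and 2.27, 3.69 and 2.29 in KitWsh PBS. So 2 engrafted arrays lay at the limit and above every KitWsh PBS array, while the other lay within the KitWsh PBS range. Cpa3, for carboxypeptidase A3, was 3.79, 3.18 and 3.43 against 3.36, 3.05 and 3.05, and Tpsb2, a tryptase, lay between 2.36 and 2.58 in all 6 arrays. Genes of the IgE receptor of mast cells and basophils were low too, Fcer1a at 4.20, 3.09 and 4.68 against 3.54, 3.33 and 3.04 and Ms4a2 at 3.88, 3.72 and 4.14 against 3.72, 3.52 and 2.74.

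Among the 4 tested mast cell genes, 0 were called higher and 1 lower. Hdc, which makes histamine, was 10.85, 10.69 and 10.45 in KitWsh_MC PBS against 10.48, 10.32 and 10.30, a difference of 0.30 ± 0.14 that was not called (adjusted p = 0.163). Gata2, a transcription factor of mast cells and progenitors that lung endothelium also expresses, differed by -0.41 ± 0.18 and was not called. Rab27b, which guides granule docking, fell by 0.52 ± 0.14 (adjusted p = 0.0353), a call lost on centring. Of its 3 probe sets another was called lower, at -0.72 (adjusted p = 0.0423 over all probe sets), while the remaining one differed by 0.84 ± 0.60 and was not called. These are whole-lung values, in which fewer cells of a type and less RNA per cell cannot be told apart. The labels of engraftment are therefore not checked by these transcripts in unchallenged lungs.

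**Figure D2:**
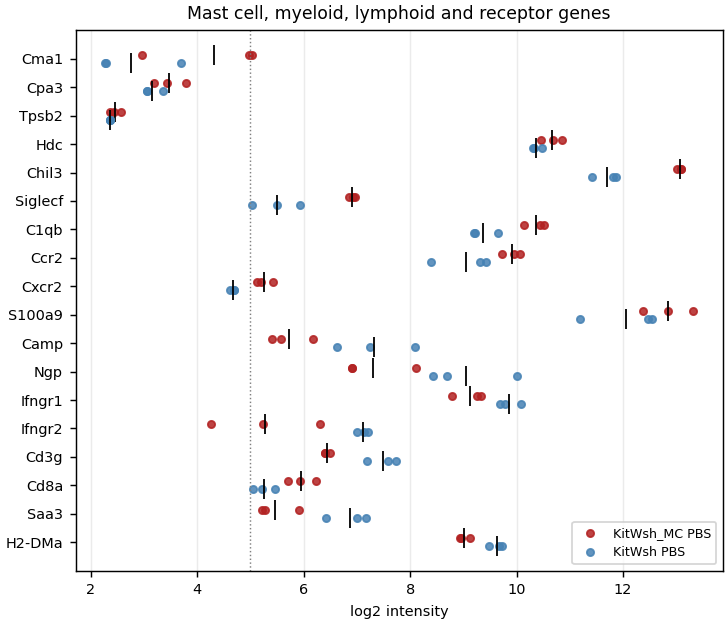
Log2 intensity in each KitWsh_MC PBS array (red, n = 3) and KitWsh PBS array (blue, n = 3) for mast cell, myeloid, lymphoid and receptor genes, with group means as vertical ticks and the testing limit of log2 5 as a dotted line. Cma1, Cpa3 and Tpsb2 lie near or under the limit in both groups. Chil3, Siglecf, Camp, Ngp and Cd3g are among the drawn genes that do not overlap between groups, as held for 43.4% of all tested genes.

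Alveolar macrophages are the resident phagocytes of the air spaces. Chil3, a secreted chitinase-like protein that they make in quantity, was 13.02, 13.09 and 13.09 in KitWsh_MC PBS and 11.42, 11.87 and 11.81 in KitWsh PBS. The groups differed by 1.37 ± 0.15 (adjusted p = 0.00294) and did not overlap, as was true of 43.4% of all tested genes. Siglecf, a sialic acid-binding receptor of alveolar macrophages and eosinophils, was 6.86, 6.93 and 6.96 against 5.51, 5.94 and 5.04, a difference of 1.42 ± 0.21 (adjusted p = 0.00689). Both calls held whichever array was left out.

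WT PBS lungs were close to the engrafted ones for both genes, with Chil3 at 13.20 ± 0.10 and Siglecf at 7.33 ± 0.39 (SD, n = 4). KitWsh lungs with the MCifngR label were close to the lungs without engraftment, with Chil3 at 11.55 ± 0.18 and Siglecf at 5.24 ± 0.17 (SD, n = 3), and their GAPDH value was the highest of these groups. Of 9 alveolar macrophage genes tested, 2 were called higher and 0 lower, a share of 22.2% beside 21.0% of all genes. The list's median difference was 0.20 where that of all genes was -0.15. The next members by p, the keratin gene Krt79 and the transcription factor Pparg, differed by 0.64 ± 0.25 and 0.40 ± 0.21 and were not called.

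Of 13 genes of monocytes and recruited macrophages, 2 were called higher and 1 lower, a share of 23.1% beside 21.0% of all genes. C1qb, a chain of complement C1q, was 10.44, 10.52 and 10.14 in KitWsh_MC PBS against 9.65, 9.23 and 9.20, rising by 1.00 ± 0.17 (adjusted p = 0.00961). A further probe set of C1qb was called higher, at 1.01 (adjusted p = 0.0171 over all probe sets), while another differed by -0.49 and was not called. Ccr2, the chemokine receptor of inflammatory monocytes, rose by 0.87 ± 0.26 (adjusted p = 0.0482), a call lost in each of the 6 fits that leave out an array. Cd14, the co-receptor for endotoxin, fell by 0.56 ± 0.16 (adjusted p = 0.038), which was not called after centring.

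Neutrophil genes did not move together. Ngp, a protein of neutrophil secondary granules made in immature cells, was 8.11, 6.91 and 6.91 in KitWsh_MC PBS and 10.01, 8.70 and 8.43 in KitWsh PBS. Camp, the granule antimicrobial peptide cathelicidin, was 6.18, 5.41 and 5.58 against 8.10, 7.24 and 6.64. For each gene array 1 was the highest of its group, and the groups did not overlap, as was true of 43.4% of all tested genes.

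Ngp fell by 1.73 ± 0.45 (adjusted p = 0.0313, called in 1 of the 6 fits that leave out an array) and Camp fell by 1.60 ± 0.35 (adjusted p = 0.02, called in 4 of the 6, and lost without KitWsh_MC PBS array 2 or 3). In WT PBS lungs Ngp averaged 4.73 ± 1.58 and Camp 3.55 ± 0.85 (SD, n = 4), lower than in either KitWsh group. Cxcr2, the chemokine receptor of mature neutrophils, lay between 5.12 and 5.43 against 4.61 to 4.70 and was called higher (adjusted p = 0.0203), by at least 1.19-fold since all KitWsh PBS values lay under the limit. Cxcr2 thus entered the test only through its KitWsh_MC PBS values. S100a9, the abundant calcium-binding protein of mature neutrophils, was 13.32, 12.37 and 12.84 against 12.54, 12.46 and 11.19 and was not called. In all, 1 of 10 neutrophil genes was called higher and 2 lower, 30.0% beside 21.0% of all genes. The list's median difference was 0.27 where that of all genes was -0.15.

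Eosinophil and lymphocyte genes showed single members rather than lists. Prg2, the eosinophil major basic protein, was 6.07, 4.86 and 5.50 against 6.15, 5.96 and 6.72 and was not called. Cd3g, a signalling chain of the T cell receptor, was 6.39, 6.41 and 6.50 in KitWsh_MC PBS and 7.74, 7.58 and 7.18 in KitWsh PBS, falling by 1.07 ± 0.16 (adjusted p = 0.00694), and held without any 1 array. Cd8a, the co-receptor of cytotoxic T cells, rose by 0.71 ± 0.18 (adjusted p = 0.027). Its other probe set, the brighter one in these 6 arrays, differed by 0.15 and was not called, and the call was lost in 4 of the 6 fits that leave out an array. Il7r, the receptor for interleukin 7, fell by 0.58 ± 0.17 (adjusted p = 0.0423), but another probe set of it differed by 0.75. Of 7 T cell genes 1 was called higher and 2 lower, and after centring 1 and 1. Before centring that was 42.9% of the list, beside 21.0% of all genes.

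Among 10 B cell genes Fcrla rose by 0.67 ± 0.18 (adjusted p = 0.0334), another probe set of it differing by -0.40, and Fcer2a, the low-affinity IgE receptor CD23, differed by 0.53 ± 0.19 and was not called. Among 11 plasma cell genes 0 were called higher and 2 lower, a share of 18.2% beside 21.0% of all genes. Irf4, the transcription factor of plasma cells and activated lymphocytes, fell by 0.86 ± 0.20 (adjusted p = 0.022), as did Edem2, which takes part in disposal of misfolded glycoproteins, by 0.55 ± 0.15 (adjusted p = 0.0328). After centring the list had 1 higher and 1 lower call, Edem2 no longer among them, and after quantile normalisation 0 in either direction. Of 6 genes of NK and cytotoxic cells 0 were called.

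Among the genes of antigen presentation by MHC class II, single members were lower. H2-DMa, which loads peptides, was 8.95, 8.94 and 9.13 in KitWsh_MC PBS against 9.73, 9.67 and 9.48, and fell by 0.62 ± 0.13 (adjusted p = 0.0172). H2-Eb1, a presenting chain, fell by 0.47 ± 0.13 (adjusted p = 0.0365), and H2-Ab1, another, differed by -0.32 ± 0.12 and was not called. Of 12 genes of dendritic cells and class II, 0 were called higher and 2 lower (16.7%, where 15.0% of all genes were called lower), and after centring H2-DMa alone of the pair.

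The receptor for IFN-γ has a binding chain, Ifngr1, and a signalling chain, Ifngr2, and acts through the kinase Jak1. Ifngr2 was 4.26, 5.23 and 6.31 in KitWsh_MC PBS against 7.21, 7.00 and 7.14, a widely spread group below a tight one, and fell by 1.85 ± 0.43 (adjusted p = 0.0227). Ifngr1 was 9.26, 8.78 and 9.33 against 9.78, 10.09 and 9.69, falling by 0.73 ± 0.18 (adjusted p = 0.0277), which was not called after centring. Both calls held in 2 of the 6 fits that leave out an array, and were lost without KitWsh_MC PBS array 2 or any KitWsh PBS array.

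Jak1 fell by 0.90 ± 0.23 (adjusted p = 0.0314) by its brightest probe set, but another of its 3 probe sets differed by 4.22, so its direction is not settled here. The kinase Syk and the IgE receptor chain Fcer1g, at -0.15 ± 0.15 and 0.10 ± 0.17, were not called. In all 0 of 10 receptor genes were called higher and 3 lower (30.0%, where 15.0% of all genes were called lower). Of 20 interferon response genes tested, 0 were called in either direction, with a median difference of -0.16 against -0.15 for all genes. Among 6 inflammatory and acute response genes, Saa3, serum amyloid A of macrophages and epithelium, was 5.27, 5.92 and 5.21 against 6.42, 6.99 and 7.18 and fell by 1.40 ± 0.25 (adjusted p = 0.0109), the list's single call. Tnfaip3, the NF-κB inhibitor A20, differed by -0.38 ± 0.13 and was not called.

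The 15 largest rises were in genes of varied function. Endod1, which encodes a protein with an endonuclease domain, was 11.13, 11.49 and 11.48 in KitWsh_MC PBS and 7.36, 7.60 and 6.84 in KitWsh PBS. Lncpint, a long non-coding RNA under control of p53, was 6.80, 8.03 and 8.15 against 3.28, 3.78 and 3.14. Spag17, a structural protein of the ciliary axoneme, was 7.36, 7.93 and 7.59 against 4.32, 4.20 and 4.20. No array of one group came near the other group for any of these 3 genes.

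Endod1 rose by 4.10 ± 0.21 (17.2-fold, adjusted p = 0.00015), Lncpint by at least 6.33-fold (adjusted p = 0.00108) and Spag17 by at least 6.16-fold (adjusted p = 0.00015). Here "at least" means the mean of the higher group over log2 5, where every lower array lay under it. Genes given so entered the test only through their higher group, so their adjusted p-values add no support to the values themselves. WT PBS lungs lay at 10.32 ± 0.93, 5.53 ± 0.64 and 6.47 ± 0.59 for Endod1, Lncpint and Spag17 (SD, n = 4). Lungs with the MCifngR label lay at 6.62 ± 0.50, 3.24 ± 0.04 and 4.28 ± 0.74 (SD, n = 3), near the lungs without engraftment.

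Other large rises were those of Mical2 (3.17 ± 0.44), an enzyme that oxidises actin, Zbed6 (3.02 ± 0.45), a transcriptional repressor, Rb1cc1 (2.88 ± 0.30), which starts autophagy, and Ptar1 (at least 3.10-fold). The DNA repair gene Ercc6 rose by at least 2.48-fold and the ubiquitin ligase genes Fbxo32, Cul5 and Neurl3 by 2.72 ± 0.21, 2.60 ± 0.22 and at least 2.95-fold. Glycam1, a mucin-like ligand of L-selectin in high endothelial venules, was 7.44, 5.12 and 5.93 against 3.33, 3.36 and 3.66, at least 2.24-fold higher. The chaperone gene Dnajb14 (2.75 ± 0.27), Gprin3 (2.59 ± 0.29) and the small GTPase gene Rap2b (2.54 ± 0.43) complete the 15. All 15 were called whichever array was left out, with adjusted p from 0.00015 to 0.0114. The limit for testing was set on all 6 arrays in each of these fits, and genes given as "at least" passed it only through their engrafted arrays.

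These values hold for the probe set with the highest mean, and other probe sets of the same gene often differed from it. Those of Endod1, Rb1cc1, Dnajb14, Fbxo32 and Cul5 reached down to -0.37, -0.54, -0.50, -0.35 and -0.51. The low ones of Rb1cc1, Dnajb14 and Cul5 were themselves called lower (adjusted p = 0.0275, 0.0375 and 0.0454 over all probe sets). The direction of these genes is therefore not settled here, although a further probe set of Cul5 was called higher, at 2.09. For Endod1 the remaining probe sets, at 0.71, 3.22 and 3.29, were called higher. Over all genes, 1022 called genes had 1651 further tested probe sets, of which 52.7% had the same sign as the call, 350 being called in the same direction and 273 in the opposite one. Probe sets of a gene can lie at different distances from its 3' end or in different transcripts. Positions of the probe sets were not used here, and the part of either in these differences was not tested.

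**Figure D3:**
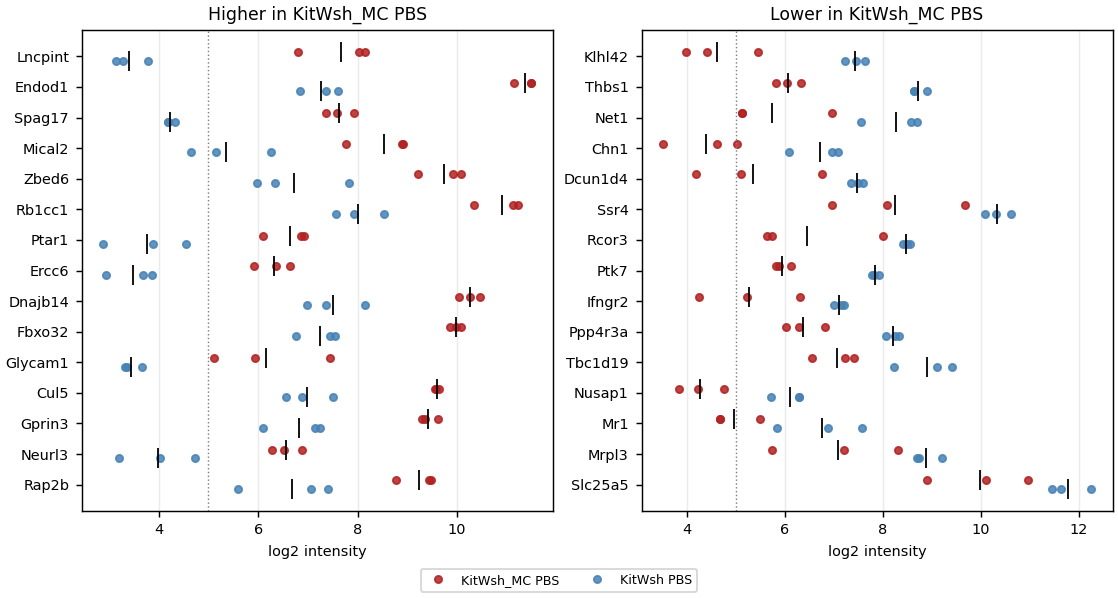
Log2 intensity in each KitWsh_MC PBS array (red, n = 3) and KitWsh PBS array (blue, n = 3) for the 15 named genes with the largest called rise (left) and fall (right), with group means as vertical ticks and the testing limit of log2 5 as a dotted line. No gene overlaps between groups, as their choice by large differences makes likely and as held for 43.4% of all tested genes. Single KitWsh_MC PBS arrays spread widely for Dcun1d4, Ssr4, Rcor3 and Mrpl3.

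The largest falls included matrix, signalling and mitochondrial genes. Thbs1, the matrix glycoprotein thrombospondin 1, was 6.04, 5.82 and 6.32 in KitWsh_MC PBS and 8.90, 8.64 and 8.63 in KitWsh PBS, and fell by 2.66 ± 0.16 (6.34-fold, adjusted p = 0.000339). Klhl42, a substrate adaptor of ubiquitin ligases, was 3.98, 4.41 and 5.45 against 7.22, 7.45 and 7.63, and fell by 2.82 ± 0.33 (adjusted p = 0.00355), a size that rests partly on background since 1 of the 3 engrafted arrays exceeded log2 5. Ptk7, a receptor-like pseudokinase of Wnt signalling, was 5.89, 5.81 and 6.13 against 7.78, 7.82 and 7.93, and fell by 1.90 ± 0.13 (adjusted p = 0.00068). In each of the 3 the groups were well apart.

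WT PBS lungs were not on one side for these genes. Thbs1 averaged 8.28 ± 0.70 there, like KitWsh PBS, while Klhl42 at 5.67 ± 0.36 lay between the groups and Ptk7 at 5.88 ± 0.59 (SD, n = 4) lay with KitWsh_MC PBS. Another probe set of Thbs1 differed by 0.15. Lungs with the MCifngR label had Thbs1 at 7.37 ± 0.37 (SD, n = 3), between the groups.

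Falls that also held without any 1 array were those of Chn1 (-2.33 ± 0.40, also with 1 engrafted array over log2 5), a Rac-inactivating protein, Ppp4r3a (-1.84 ± 0.20), a phosphatase subunit, Tbc1d19 (-1.84 ± 0.32) and the spindle gene Nusap1 (at least 2.14-fold lower). Slc25a5, the ATP/ADP carrier of the inner mitochondrial membrane, was 10.96, 8.90 and 10.10 against 12.25, 11.44 and 11.63, and fell by 1.79 ± 0.46 (adjusted p = 0.0308). All 8 of its probe sets differed in that direction, between -2.02 and -0.78, but the call held in 1 of the 6 fits that leave out an array. The remaining falls were Net1 (-2.54 ± 0.51), Dcun1d4 (-2.13 ± 0.53), Ssr4 (-2.09 ± 0.57), Rcor3 (-2.02 ± 0.55), Ifngr2, Mr1 (-1.81 ± 0.41), which presents vitamin metabolites to T cells, and the mitochondrial ribosomal gene Mrpl3 (-1.79 ± 0.54). Each of these was called in 1 to 3 of those 6 fits. Another of the 3 probe sets of Rcor3 was higher by 1.05 ± 0.24 (adjusted p = 0.0218 over all probe sets), so its direction is not settled here. Ssr4, Rcor3 and Mrpl3 were not called after centring.

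In the endothelial, fibroblast, matrix, smooth muscle and mesothelial lists every call was in the lower direction, until centring made 1 mesothelial gene a higher call. The share called lower was 22.2% to 30.0% by list, beside 15.0% of all genes, a direction that prevailed in all calls before centring and not after it. Pecam1, the endothelial adhesion molecule CD31, was 9.06, 9.62 and 10.53 in KitWsh_MC PBS against 11.33, 11.03 and 11.39, and fell by 1.51 ± 0.33 (adjusted p = 0.0188). Cdh5, the cadherin of endothelial junctions, was 10.60, 10.38 and 10.57 against 11.24, 11.66 and 11.46, and fell by 0.94 ± 0.15 (adjusted p = 0.00765). Emcn, an endothelial sialomucin, fell by 1.11 ± 0.23 (adjusted p = 0.0162) and Tmem100 by 0.55 ± 0.16 (adjusted p = 0.0441). Of 18 endothelial genes 0 were called higher and 4 lower (3 after centring), and Cdh5 alone of these 4 held whichever array was left out. The list's median of -0.14 was that of all genes, -0.15.

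Fibroblasts make the collagens and elastic fibre proteins of the lung wall. Fbln1, a glycoprotein of elastic fibres and basement membranes, was 6.58, 6.45 and 6.77 against 8.00, 7.71 and 7.77, and fell by 1.23 ± 0.14 (adjusted p = 0.00355), with both its tested probe sets lower. Mfap4, a protein bound to elastic fibres, was 10.17, 10.10 and 10.38 against 11.54, 11.19 and 11.61, and fell by 1.23 ± 0.15 (adjusted p = 0.00429). Both held without any 1 array. Col6a3, a collagen VI chain, fell by 0.97 ± 0.20 (adjusted p = 0.0173) and fibronectin, Fn1, by 0.57 ± 0.14 (adjusted p = 0.0248). Of 18 fibroblast and collagen genes 0 were called higher and 5 lower (3 after centring), and the list's median was -0.42.

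Beside Thbs1, the matrix protease Adamts1 and the collagen cross-linking enzyme Lox fell by 0.81 ± 0.21 (adjusted p = 0.0313) and 0.86 ± 0.26 (adjusted p = 0.0464), both no longer called after centring, which left 1 of 12 matrix remodelling genes. Of 10 smooth muscle genes 3 were called lower, 0 of them after centring: Itga8 by 0.49 ± 0.12, the myosin kinase Mylk by 0.57 ± 0.15 and desmin, Des, by 0.54 ± 0.16. The mesothelial genes Upk1b and Muc16 fell by 0.71 ± 0.14 and 0.81 ± 0.20, 2 of 8 tested, Muc16 not after centring. Cardiac muscle can enter lung samples with the pulmonary veins or the heart. Its titin gene Ttn rose by 1.31 ± 0.37 (adjusted p = 0.0398) and Myh7 by 0.50 ± 0.14. These were 2 of 14 such genes, 14.3% beside 21.0% of all genes. Another probe set of Ttn differed by 0.03, and among fits that leave out an array Ttn was called only without KitWsh PBS array 3. The part of heart tissue in other differences was not tested.

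In the epithelial lists 8.3% to 20.0% of the members tested were called, beside 21.0% of all genes. In type 1 cells, which form the gas exchange surface, Akap5, an anchor of protein kinase A, was 11.85, 11.89 and 11.80 against 10.81, 10.64 and 10.77, and rose by 1.10 ± 0.12 (adjusted p = 0.00285), the single call among 12 genes. Of its 3 probe sets another was called higher, at 0.90 (adjusted p = 0.0153 over all probe sets), while the remaining one differed by -1.64 ± 0.68 and was not called. Among 13 type 2 cell genes the aspartic protease Napsa and the transcription factor Etv5 fell by 0.49 ± 0.12 and 0.75 ± 0.18, neither after centring. Among 12 club cell genes Gsta3 fell by 0.77 ± 0.22, not after centring, and Fmo2, a monooxygenase, by 1.01 ± 0.23. Of the 5 probe sets of Fmo2 another was called lower, at -1.43, but those at 1.38 and 1.14 were called higher (adjusted p = 0.00434 and 0.0305 over all probe sets). Its direction is therefore not settled here.

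Of 15 ciliated cell genes 2 were called higher and 1 lower. Ccdc39, which sets the spacing of dynein arms, was 9.63, 9.60 and 9.62 against 8.95, 8.68 and 9.03, and rose by 0.73 ± 0.13 (adjusted p = 0.0118). Rsph4a, of the radial spokes, rose by 0.55 ± 0.15 and Dnaic1, of the outer dynein arm, fell by 1.16 ± 0.33, a call lost on centring. The mucus gene Fcgbp fell by 0.67 ± 0.19, 1 of 5 goblet cell genes tested, also lost on centring.

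**Figure D4:**
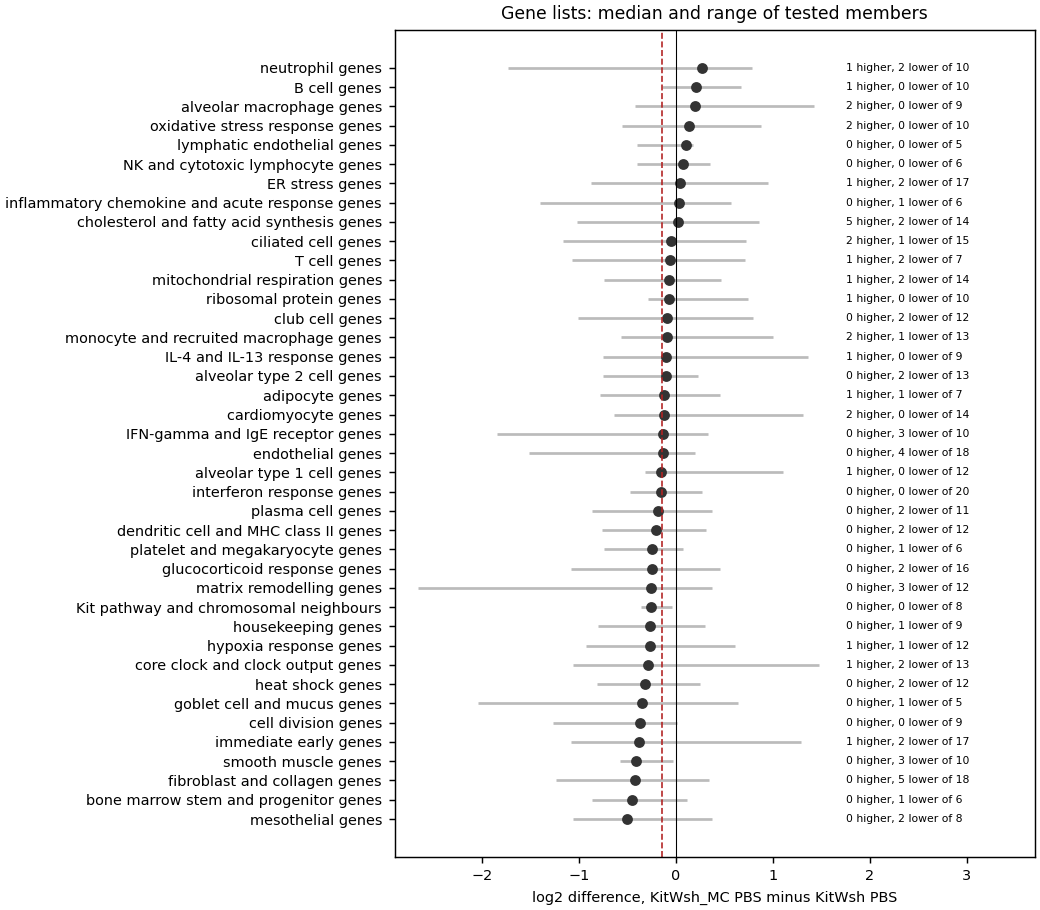
Difference between KitWsh_MC PBS and KitWsh PBS (log2) for the 40 gene lists with at least 5 tested members: median (point) and range (line) over tested members, with the counts called in each direction at the right. The dashed line is the median of all 10946 genes, -0.15; the lists' medians lie on both sides of it, with neutrophil, B cell and alveolar macrophage lists at the top and fibroblast, progenitor and mesothelial lists at the bottom.

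Cells make cholesterol from acetyl-CoA. When sterols run low, the retention protein Insig1 lets the factor SREBP leave for the nucleus, where it switches on Insig1 itself and the enzymes of the pathway. Of 14 genes of cholesterol and fatty acid synthesis, 5 were called higher (6.0% of all genes were) and 2 lower (5 and 1 after centring). The promoters of Insig1 and of the pathway enzymes Hmgcs1 and Idi1 are shown because these 3 genes were called higher and SREBP and its partner NF-Y are known to act on promoters of this pathway. Idi1 was chosen after its values were seen. They are the 250 bases before the gene start in RefSeq (GRCm38.p6), at chr5:28071162-28071411, chr13:119690101-119690350 and chr13:8885356-8885605, all on the plus strand, and capitals mark the matches to the motifs searched.
Insig1: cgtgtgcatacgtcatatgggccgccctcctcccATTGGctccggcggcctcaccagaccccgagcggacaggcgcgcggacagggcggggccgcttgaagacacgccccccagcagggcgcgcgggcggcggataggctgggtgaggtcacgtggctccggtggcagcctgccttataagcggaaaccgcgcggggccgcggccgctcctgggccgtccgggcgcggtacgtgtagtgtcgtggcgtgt
Hmgcs1: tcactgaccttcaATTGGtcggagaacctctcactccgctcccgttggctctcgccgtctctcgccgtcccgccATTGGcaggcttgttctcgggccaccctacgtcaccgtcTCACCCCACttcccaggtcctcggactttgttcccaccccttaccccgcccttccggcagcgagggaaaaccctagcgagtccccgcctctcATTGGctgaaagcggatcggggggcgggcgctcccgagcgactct
Idi1: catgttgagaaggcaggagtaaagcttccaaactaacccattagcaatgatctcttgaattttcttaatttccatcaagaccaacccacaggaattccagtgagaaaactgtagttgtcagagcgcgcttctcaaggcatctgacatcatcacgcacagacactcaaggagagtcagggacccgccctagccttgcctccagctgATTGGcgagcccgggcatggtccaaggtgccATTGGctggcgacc
The motifs were TCACNCCAC for the sterol regulatory element and CCAAT for the NF-Y box, on both strands, the latter reading ATTGG where it lies on the other strand. They do not overlap. The window of Hmgcs1 held 1 sterol element, 137 bases before the start, and 3 CCAAT boxes, that of Idi1 held 2 CCAAT boxes and that of Insig1 held 1. Among all 32851 RefSeq promoters of this length, 1.05% held the sterol motif and 33.8% the CCAAT box. Of the 18 listed genes 11 had a promoter in the table, 1 with the sterol motif and 8 with the CCAAT box. A match is a description of the letters and no evidence of binding.

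Insig1 was 10.23, 9.87 and 9.80 in KitWsh_MC PBS and 8.86, 9.23 and 9.25 in KitWsh PBS, and rose by 0.86 ± 0.17 (adjusted p = 0.0148). Hmgcs1, the synthase before the rate-limiting step, was 12.17, 12.33 and 12.08 against 11.50, 11.56 and 11.77, and rose by 0.58 ± 0.14 (adjusted p = 0.0233), its 5 probe sets differing by -0.28 to 0.79. Idi1, the isomerase that makes the isoprenoid building block, was 10.42, 10.55 and 10.50 against 9.87, 9.99 and 10.06, and rose by 0.51 ± 0.12 (adjusted p = 0.0239). None of the 3 overlapped between the groups, as was true of 43.4% of all tested genes. Insig1 held its call in 5 of the 6 fits that leave out an array, losing it without KitWsh PBS array 1, and the other two in 2.

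Acly, which makes cytosolic acetyl-CoA, was 12.23, 11.93 and 11.75 against 11.29, 11.28 and 11.26, and rose by 0.69 ± 0.15 (adjusted p = 0.0183), but its other 2 probe sets were called lower, at -2.15 and -0.50. Lss, lanosterol synthase, rose by 0.78 ± 0.23 (adjusted p = 0.0464), and its other probe set differed by -0.44. In the other direction, Fdps, farnesyl diphosphate synthase, was 7.51, 6.79 and 7.20 against 8.24, 7.89 and 8.42, and fell by 1.02 ± 0.21 (adjusted p = 0.0169). Elovl6, a fatty acid elongase, fell by 0.84 ± 0.25 (adjusted p = 0.0464), a call lost on centring. Lss and Elovl6 were also named after their values were seen.

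In the lists of stress, clock and early response genes, 12.5% to 23.1% of the members tested were called, beside 21.0% of all genes. Jund, a subunit of the transcription factor AP-1, was 12.52, 12.81 and 12.17 against 11.28, 10.99 and 11.35, and rose by 1.29 ± 0.19 (adjusted p = 0.00652) with its call held without any 1 array. Dusp1, a phosphatase of MAP kinases, fell by 1.08 ± 0.31 (adjusted p = 0.0437), lost on centring, and Atf3, a stress-induced transcription factor, was 4.58, 4.67 and 4.74 against 5.27, 5.86 and 5.18, at least 1.35-fold lower (adjusted p = 0.0263). These made 1 higher and 2 lower of 17 immediate early genes. Errfi1, a feedback inhibitor of EGF receptors, fell by 0.66 ± 0.17, lost on centring, and with Dusp1 made the 2 lower calls of 16 glucocorticoid response genes.

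Gclm and Gclc, the subunits of the enzyme that limits glutathione synthesis, rose by 0.87 ± 0.12 (adjusted p = 0.00495) and 0.49 ± 0.14 (adjusted p = 0.0379), 2 of 10 oxidative stress genes, while another probe set of each differed by -0.49. In the ER stress list of 17 genes the transcription factor Atf4 rose by 0.95 ± 0.16 (adjusted p = 0.00915), its other probe set differing by -0.27, and Pdia4 and Herpud1, which fold and clear proteins in the ER, fell by 0.87 ± 0.16 and 0.61 ± 0.13. The co-chaperone Bag3 and the small heat shock protein Hspb1 fell by 0.66 ± 0.15 and 0.55 ± 0.14, 2 of 12 heat shock genes, Hspb1 not after centring. Among 13 clock genes Hlf, a clock output factor, rose by 1.48 ± 0.32. Its other probe set was called lower, at -1.20 (adjusted p = 0.0135 over all probe sets), so its direction is not settled here. The clock repressors Per2 and Nr1d2 fell by 1.06 ± 0.25 and 0.45 ± 0.12, Nr1d2 not after centring. No label gives the hour of tissue collection. Of 9 cell division genes 0 were called, and of 8 genes on the Kit pathway or beside Kit on its chromosome also 0.

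The same pair of mouse groups was also compared after OVA, in arrays that share none with the PBS comparison (n = 4 and 4). There 590 of 10972 genes were called (5.38%), and the difference between the OVA and the PBS comparison was called for 190 of 11300 genes (1.68%). Of the 2235 genes called in PBS lungs and tested in both, 78.7% had the same sign after OVA, 69.1% of the higher and 82.5% of the lower ones, beside 64.3% of all 10776 genes tested in both. Of the genes called in PBS lungs 150 were called after OVA with the same sign and 16 with the opposite one. Among all 10776 genes tested in both, 397 and 152 were. The GAPDH value was also higher in KitWsh_MC OVA arrays, at 2.52, 6.77, 2.74 and 2.19 against 2.30, 0.77, 0.37 and 0.69 in KitWsh OVA, so this comparison shares that difference. Without KitWsh_MC OVA array 2, which stood apart, the same-sign shares were 74.8% and 77.2%, beside 62.3% of all genes.

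Of the genes named above, 6 differed between the OVA and the PBS comparison by that test. Siglecf, higher with engraftment in PBS lungs, was lower after OVA, at 5.54 ± 0.40 in KitWsh_MC OVA and 6.79 ± 0.35 in KitWsh OVA (SD, n = 4 each), and the OVA difference minus the PBS difference was -2.68 ± 0.36 (adjusted p = 0.00294). Saa3, lower in PBS lungs, was 12.00 ± 0.55 against 6.54 ± 1.78 after OVA, a change of 6.86 ± 0.96 (adjusted p = 0.0036). Akap5 changed by -1.37 ± 0.22 (adjusted p = 0.00843), at 10.83 ± 0.16 against 11.11 ± 0.24 after OVA.

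Atf3 was 6.35 ± 0.17 against 5.25 ± 0.43 after OVA and Cd14 10.06 ± 0.34 against 9.01 ± 0.29 (SD, n = 4 each), both higher with engraftment there and lower in PBS lungs. Their changes were 1.88 ± 0.32 (adjusted p = 0.0108) and 1.61 ± 0.30 (adjusted p = 0.0151), the first resting partly on KitWsh_MC PBS values under log2 5. Cpa3 was 6.30 ± 0.83 in KitWsh_MC OVA against values under log2 5 in all KitWsh OVA and PBS arrays, at least 2.46-fold higher in the engrafted OVA lungs than in KitWsh OVA lungs. Its change was called (adjusted p = 0.00994), but the fitted size has no meaning of its own against such low values. Cma1 was 7.48 ± 0.49 in KitWsh_MC OVA, at least 5.58-fold higher than in KitWsh OVA, and its change was not called (adjusted p = 0.128). Both mast cell proteases were above log2 5 in all 4 engrafted arrays after OVA. Cpa3 entered the test of the change only through those arrays, so its call in this and the following fits adds no support to its values. All 6 changes were still called without KitWsh_MC OVA array 2 and with the GAPDH covariate, and 5 of them whichever of the 14 arrays was left out, Cd14 losing its call without KitWsh_MC PBS array 2 or KitWsh PBS array 1 or 3.

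**Figure D5:**
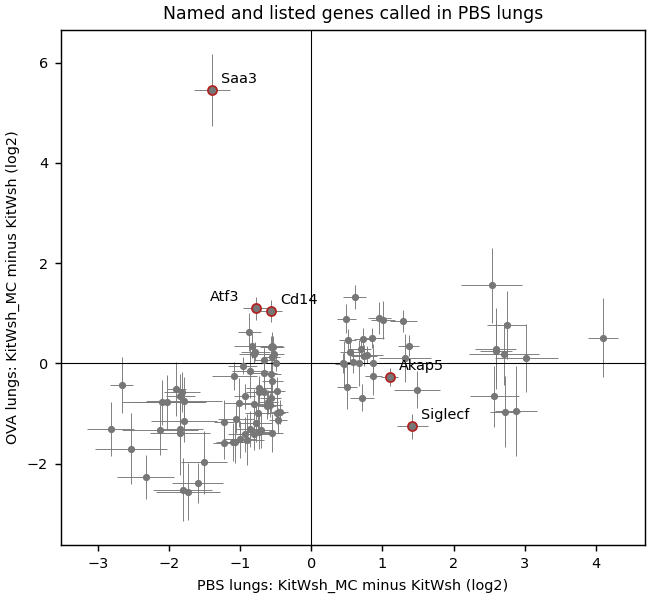
Difference between KitWsh_MC and KitWsh lungs (log2) in PBS arrays (horizontal, n = 3 and 3) and OVA arrays (vertical, n = 4 and 4) for 102 listed or named genes called in PBS lungs and tested in both, each with its SE as bars. The 5 labelled genes, ringed in red, differ between the comparisons: Saa3, Atf3 and Cd14 are lower in PBS and higher after OVA, and Siglecf and Akap5 are higher in PBS and below 0 after OVA.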

How the data were processed

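Lung RNA, extracted with TRIzol, was hybridised to single-colour Affymetrix mouse arrays. The authors deposited log2 intensities computed by GCRMA, according to the submitters' processing notes, which name no version. This method corrects probes for background by their sequence and normalises the arrays to each other, so low values are set by its background model. No further normalisation was applied.

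The series holds 45101 probe sets, of which 64 controls were left out, 34945 had 1 gene symbol in GEO's platform annotation, 932 several and 9160 none. Each of 18193 genes was represented by its brightest probe set, by the mean of the 36 arrays. Genes over log2 5 in at least 3 of the 6 arrays (4 of 8 for OVA, 3 of 14 for the difference between the comparisons) were tested with limma 3.58.1 in R 4.3.3 (lmFit and eBayes, group means, no block, since the labels pair no samples). A gene given as "at least" so many fold passed the limit of log2 5 only through its higher group, which its adjusted p does not allow for. Single probe sets were fitted the same way. Differences are given ± SE and group means ± SD. The highest Pearson correlation between any 2 arrays was 0.993, and none were identical. The number of arrays limits the precision.

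The named genes were the 15 largest differences called in each direction, Kit, the mast cell list and 2 to 4 members of each list described with the smallest p. Predicted and clone-named genes were passed over. The comparison, the 47 gene lists and the tests were chosen with earlier results of these data known. In simulated data for the PBS comparison, in which 200 of 10946 genes were changed, 71% of 2-fold and 96% of 4-fold changes were recovered, and 6.18% of the calls were false. The simulated noise was independent between genes, with no shift shared within an array such as one of RNA quality. These shares therefore do not give the false share of the real calls. Alternatives changed the probe set, filter, normalisation, spread, weights, covariates and arrays. The GAPDH covariate was added after the data were seen.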

Additional observations from a re-analysis of the deposited data

Results flagged for a closer look

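In groups of 4 arrays, a value was singled out when its gap to the nearest other array took most of the group's range. Of the 29 groups examined chance would pick about 1 in 20, and 7 were picked. In KitWsh_MC OVA array 2 the GAPDH difference between 3' and 5' probe sets was 6.77 and that of beta-actin 6.23, where the other 3 arrays of the group lay at 2.19 to 2.74 and 2.21 to 2.61. Akap5 was 10.60 in KitWsh_MC OVA array 4 against 10.89 to 10.94 in the others. Saa3 was 3.90 in KitWsh OVA array 3 against 7.10 to 7.72. In WT PBS lungs, Chil3 was 13.35 in array 2 against 13.13 to 13.17. In WT PBS array 4, Endod1 was 8.94 against 10.61 to 10.95 and Thbs1 7.24 against 8.53 to 8.68.

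The difference between KitWsh_MC and KitWsh lungs was not the same after OVA as after PBS, by limma's test, for 6 of the named genes. On the log2 scale it changed by 6.86 for Saa3, by 2.82 for Cpa3 (a fitted size against values under log2 5 in 3 of the 4 groups), by 1.88 for Atf3, by 1.61 for Cd14, by -1.37 for Akap5 and by -2.68 for Siglecf. Cpa3 entered this test only through its KitWsh_MC OVA arrays, so its call adds no support to its values. Saa3, Atf3 and Cd14 were lower in engrafted PBS lungs and higher in engrafted OVA lungs.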

How the results depend on the processing

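The PBS comparison had 2301 calls (657 higher, 1644 lower). The number was 1394 (392, 1002) with the spread of 35 arrays and 141 (80, 61) with that of all 36, the added one being KitWsh_MCigeR PBS array 2. With no filter on low values it was 467 (160, 307), with more genes tested, with the beta-actin covariate 5 (4, 1) and with the GAPDH covariate 0 (0, 0), where 1329 genes had an unadjusted p under 0.05. Centring gave 963 higher and 769 lower calls and quantile normalisation 921 and 773, turning the prevailing direction. Leaving out 1 array gave 585 to 1898 calls, 236 to 555 higher and 349 to 1349 lower. The OVA comparison's 590 calls became 182 with the beta-actin covariate, 50 with the GAPDH covariate, 46 with no filter and 80 to 923 without 1 array. The 190 genes that differed between the comparisons became 533 and 540 with those covariates and 60 to 678 without 1 array. The cause of these shifts was not tested, beyond the numbers of genes and arrays stated. Of the named genes, 97 were called, 36 of them whichever array was left out. The sign turned with the mean of all probe sets for Acly (-0.17), Ccr2 (-0.047), Edem2 (0.18), Il7r (0.087) and Jak1 (0.92), with the probe set brightest in the 6 arrays for Fmo2 (1.38), and with the GAPDH covariate for Dnaic1 (0.12). No paired analysis was possible because the labels give the samples no shared replicate numbers. In simulated data with independent noise for each gene, 71% of 2-fold changes were recovered, smaller ones were not simulated, and values under log2 5 have no order.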
